A study of Mus musculus with 11 samples.

Results

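The 9 genes described here are Trp53, which encodes p53, its family member Trp73, and the regulators Mdm2, Mdm4, Ppm1d, Usp7, Rchy1, Cdkn2a and Ep300. They were taken by exact gene name from a table of 47517 gene names, and each name was present. The values are RNA-seq read counts for the forelimb bud of C57BL/6 mouse embryos at E10.5. Control embryos were Gmnn +/f; Prx-Cre and mutant embryos were Gmnn f/f; Prx-Cre, with 5 control and 6 mutant libraries from 4 litters, called A to D. Gmnn encodes Geminin, which holds back the replication licensing factor Cdt1. Both groups thus carried the Cre transgene and at least 1 floxed Gmnn allele, and no embryo without Cre was compared. Prx-Cre acts in limb bud mesenchyme, so that ectoderm, blood, vessel and immigrant cells in the bud are not its target. Controls 1 and 2 shared litter A with mutants 1 and 2. In litter B, control 3 was set against mutant 6, and in litter C control 4 against mutant 5. Litter D gave control 5 together with mutants 3 and 4. The labels do not say whether the buds of 1 embryo were pooled.

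The p53 protein is a transcription factor that is made continuously and destroyed continuously. Mdm2 is the ubiquitin ligase that marks p53 for destruction, and the Mdm2 gene is itself switched on by p53, which closes a negative feedback loop. When replication stress or DNA damage frees p53 from Mdm2, the p53 protein accumulates with little need for more Trp53 mRNA, and targets such as the Cdk inhibitor gene Cdkn1a are transcribed. The comparison of mutant with control asked whether Mdm2 mRNA rose while Trp53 mRNA did not.

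Total counts were 14721181 to 19733288 per library, and 15821 genes were tested. The check of the labels was Gmnn, which stood at 139.3 to 238.9 CPM (counts scaled to library size) in controls and at 99.5 to 137.7 CPM in mutants, with no overlap. The forelimb factor Tbx5 was at 64.8 to 122.9 CPM in all libraries. The hindlimb factor Pitx1 was at most 0.595 CPM in 10 libraries and at 4.07 CPM in control 2. The hindlimb factor Tbx4 reached 6.11 CPM in control 3.

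Sequence around the p53 recognition repeat is shown first, since the feedback under study runs through p53 binding to DNA. A full p53 response element has a pair of copies of this 10-base repeat. RefSeq promoters (GRCm38.p6, 250 bases before to 50 bases after a start site) were at hand for 9 of the 9 genes, 13 promoters in all. The repeat, searched by its consensus, which reads the same on both strands, occurred in 4 of the 13 promoters, against 8.36% of all 32851 promoters. The 4 belong to Trp53, Mdm2, Ppm1d and Rchy1. The Mdm2 promoter shown is the one at the first start site, and the p53-responsive promoter in the first intron lies outside this window. The stretches below are 50 bases long, with the repeat in capitals, on the strand of the gene. The first base of the repeat is at position -75 from the start in Trp53 (chr11:69580264-69580313, plus strand), -186 in Mdm2 (chr10:117710915-117710964, minus strand) and -132 in Ppm1d (chr11:85311102-85311151, plus strand).
Trp53: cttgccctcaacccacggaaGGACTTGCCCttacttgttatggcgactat
Mdm2: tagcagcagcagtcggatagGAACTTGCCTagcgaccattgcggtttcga
Ppm1d: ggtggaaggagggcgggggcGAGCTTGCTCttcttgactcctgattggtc
All 3 stretches have the core CTTG within the repeat, where the consensus requires the C and the G and allows A or T between them. In Rchy1 the match begins at -90 from one of its 2 start sites. A match is a likeness in letters, and binding was not measured.

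Trp53 was the most abundant of the 9 transcripts. Its mean level per length was 148.9 RPKM (CPM divided by the exon length in kilobases), which ranked 491 among the 15821 genes tested. Rchy1 followed at 16.2 RPKM, 9.17-fold lower. Usp7 (10.04 RPKM), Mdm2 (7.20), Ppm1d (5.25), Mdm4 (3.17), Ep300 (0.913) and Trp73 (0.122) came next in that order. For each of these 7 neighbouring pairs the higher gene lay above the lower one in all 11 libraries with no overlap of their ranges. The smallest step was 1.37-fold, from Mdm2 to Ppm1d. The mRNA of the inhibitor Mdm2 was thus present at 3.95 to 6.61 RPKM for every 100 RPKM of Trp53. Mdm4, the partner of Mdm2 that masks the p53 activation domain, was lower still per length. This order rests on the exon lengths used, 14798 bases for Mdm4 and 5070 for Mdm2. In CPM the control mean of Mdm4 (48.0) was above that of Mdm2 (35.5), and that of Usp7 (79.0) above that of Rchy1 (57.8).

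**Figure D1:**
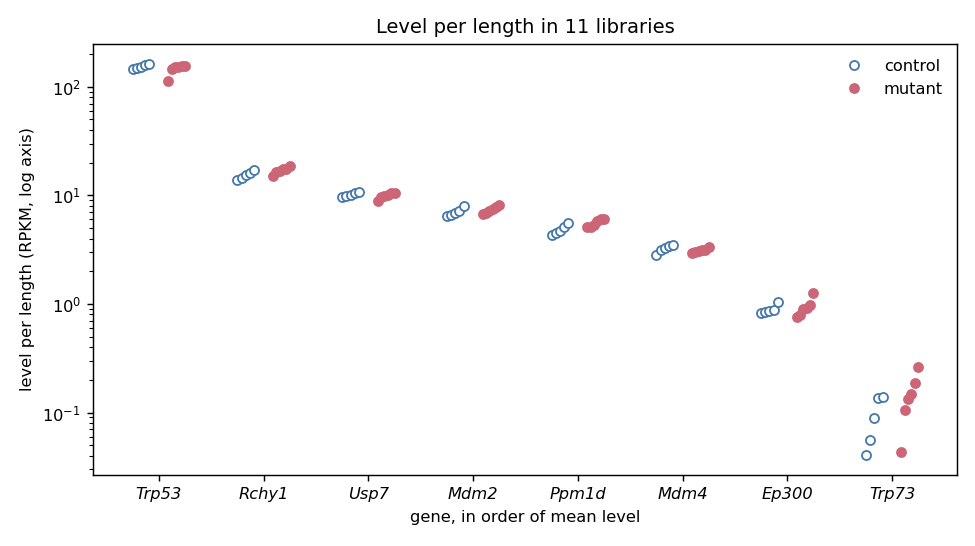
Level per length (RPKM, log axis) of the 8 genes with enough reads, in order of the mean; each point is 1 library, open for the 5 controls and filled for the 6 mutants. Trp53 lies 9.17-fold above Rchy1 in the mean, and control and mutant points of each gene overlap.

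None of the 8 genes with enough reads passed the test between mutant and control, at a Benjamini-Hochberg adjusted p of 0.05 over all genes in edgeR's quasi-likelihood test, where litter was a block. Of all genes tested, 2.18% passed. Limma-voom also gave 0 of the 8, and DESeq2 gave 0 of the 7 with an adjusted p, Trp73 having none there. At an unadjusted p under 0.05 there was 1 of 8 in edgeR (Ppm1d), 1 in limma-voom and 0 in DESeq2, against 21.4% of all genes in edgeR. The control and mutant ranges in CPM overlapped for all 8, where 2.59% of genes had ranges that did not overlap. The median log2 fold change was 0.07 over the 8 genes and 0.00382 over all genes. In a bulk sample, fewer cells of a type and less RNA per cell cannot be told apart.

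Trp53 (chromosome 11, 69580359 to 69591873, plus strand, mm10, as are all gene positions here) did not pass the test. Controls 1 to 5 had 610.9, 642.8, 584.2, 602.3 and 662.3 CPM, and mutants 1 to 6 had 629.4, 627.4, 609.96, 610.6, 591.0 and 456.0 CPM. Mutant 6, of litter B, stood alone at the bottom, and the other 5 mutants lay inside the range of the controls. The control mean was 620.5 ± 31.6 CPM (SD, n = 5) and the mutant mean 587.4 ± 65.9 CPM (SD, n = 6). This gave a log2 fold change of -0.10 (SE 0.07, 95% interval -0.25 to 0.04, edgeR adjusted p 0.418). On the linear scale that interval runs from 0.844 to 1.03 of the control level. Without mutant 6 the log2 fold change was -0.04, and without litter A it was -0.16 (edgeR unadjusted p 0.0476, adjusted p 0.332).

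Trp73 (chromosome 4, 154056253 to 154140208, minus strand) encodes p73, a p53 relative that binds similar DNA sites. Its reads numbered 4, 6, 14, 13 and 7 in controls 1 to 5 and 10, 22, 11, 4, 12 and 17 in mutants 1 to 6. Mutants 2, 5 and 6 exceeded every control in CPM, and mutant 4 was near the lowest control. Mutants over controls gave a log2 fold change of 0.78 (SE 0.47, interval -0.25 to 1.81, edgeR adjusted p 0.369), and 3 of 4 litters were higher. The estimate was 0.42 without mutant 2, 0.18 without litter A and -0.47 when the T-run index, described with Mdm2, was a covariate. Over all libraries Trp73 had 120 reads, and on the linear scale the interval reaches up to 3.503-fold. The antisense gene Trp73os covers 5.06% of the Trp73 exon bases, and counting ignored strand.

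**Figure D2:**
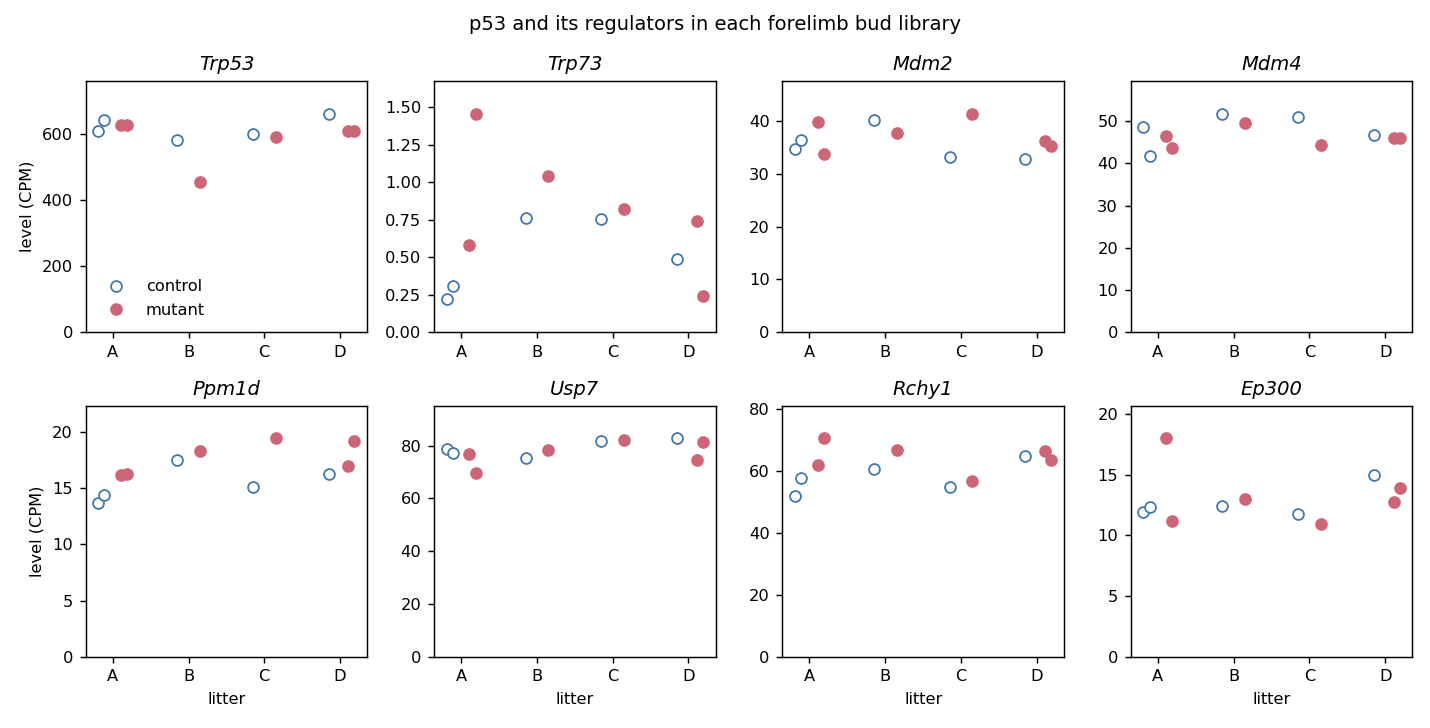
Level in CPM (linear axes from 0) of 8 genes in each library, by litter A to D; open points are controls and filled points mutants. Trp53 in mutant 6 of litter B (456.0 CPM) lies below the other 10 libraries, and Ppm1d is higher in the mutants of all 4 litters.

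Mdm2 (chromosome 10, 117688888 to 117710758, minus strand) did not pass either. Controls 1 to 5 had 34.8, 36.5, 40.2, 33.2 and 32.8 CPM, and mutants 1 to 6 had 39.8, 33.9, 36.2, 35.3, 41.4 and 37.8 CPM. The groups overlapped almost entirely, and mutant 5 alone exceeded the highest control. The means were 35.5 ± 3.01 CPM (SD, n = 5) and 37.4 ± 2.84 CPM (SD, n = 6). Its log2 fold change was 0.09 (SE 0.08, interval -0.08 to 0.27, edgeR adjusted p 0.557), which is 1.07-fold. A rise of more than 1.203-fold lies outside that interval. Litter by litter, the difference in log2 CPM was 0.04 in A, -0.09 in B, 0.32 in C and 0.12 in D.

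The small Mdm2 value moved with the choice of libraries and with a library property. It was 0.04 without control 4 or without mutant 5, either of which takes litter C out of the comparison. Without control 5 and mutant 5 together, an alternative chosen after seeing the data, it was -0.0095. A T-run index was computed per library as the level of genes with a run of 18 or more T in a transcript relative to other genes. It was 1.23 to 1.44 in controls and 1.02 to 1.33 in mutants. Within each litter every mutant lay below every control, as in litter B with 1.44 in control 3 and 1.18 in mutant 6. With litter as a block, a fit with this covariate therefore cannot fully separate the index from genotype. Under a fit that held this index as a covariate, the Mdm2 value was 0.27 (SE 0.12, unadjusted p 0.0380, edgeR adjusted p 0.450). The longest T run in Mdm2 itself has 11 bases.

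Whether Mdm2 moved apart from Trp53 was tested on the difference between the 2 genes. Controls 1 to 5 had 5.69, 5.68, 6.88, 5.51 and 4.95 Mdm2 reads per 100 Trp53 reads, and mutants 1 to 6 had 6.32, 5.40, 5.94, 5.77, 7.01 and 8.29. The groups overlapped, but within a litter only mutant 2 lay below its controls. The mutant minus control difference in log2 Mdm2 less log2 Trp53, averaged over litters, was 0.22 (1.17-fold). It was positive in 4 of 4 litters, at 0.04, 0.27, 0.35 and 0.24 in A to D. Of the 72 arrangements of the labels within litters, 3 were as far from 0 (exact two-sided permutation p 0.0417). The smallest p this design allows is 0.0139.

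The values of the 2 genes behind this ratio varied by litter, where litters B and C each held 1 control and 1 mutant. In litter B, Trp53 was lower by -0.36 and Mdm2 by -0.09 in log2 CPM. In litter C, Mdm2 was higher by 0.32 and Trp53 changed by -0.03. Mdm2 and Trp53 changed by 0.12 and -0.12 in litter D, and by 0.04 and 0.00403 in litter A. A difference between litters was not called for either gene (edgeR genotype by litter interaction, unadjusted p 0.302 for Trp53 and 0.508 for Mdm2). The call was lost when labels were permuted over all libraries without regard to litter (0.16, exact permutation p 0.225). It was also lost in 10 of the 11 analyses that left out 1 library (exact permutation p up to 0.25) and held without mutant 2 (0.25, exact permutation p 0.0278). The difference itself stayed between 0.18 and 0.25 in these 11, which allow 24 to 48 arrangements in place of 72.

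**Figure D3:**
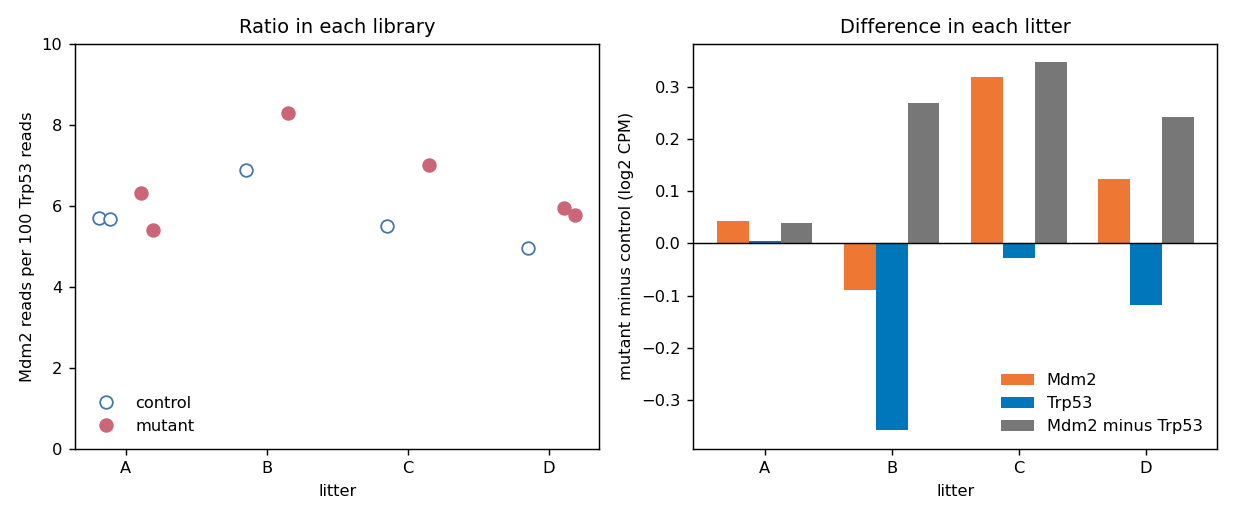
Left, Mdm2 reads per 100 Trp53 reads in each library by litter, open for controls and filled for mutants; right, bars of the mutant minus control difference in mean log2 CPM in each litter for Mdm2, for Trp53 and for Mdm2 minus Trp53. The grey bars are above 0 in all 4 litters, from 0.04 in A to 0.35 in C.

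Ppm1d (chromosome 11, 85311244 to 85347066, plus strand), which encodes the phosphatase Wip1 that removes activating phosphates from p53 and is itself a p53 target, was the gene with the smallest p among the 8. Controls 1 to 5 had 13.6, 14.4, 17.5, 15.05 and 16.3 CPM, and mutants 1 to 6 had 16.1, 16.3, 16.996, 19.2, 19.4 and 18.3 CPM. Mutants 4, 5 and 6 exceeded every control, and the mutant mean was above the control mean in 4 of 4 litters. For Ppm1d the log2 fold change was 0.20 (SE 0.09, interval 0.00222 to 0.39, unadjusted p 0.0478, edgeR adjusted p 0.230). It ranged from 0.15 to 0.24 over 24 alternative analyses, and passed the adjusted threshold in none of them.

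Rchy1 (chromosome 5, 91948904 to 91963068, minus strand) encodes Pirh2, a ubiquitin ligase that acts on p53 alongside Mdm2. Controls 1 to 5 had 51.7, 57.6, 60.6, 54.7 and 64.7 CPM, and mutants 1 to 6 had 61.7, 70.4, 66.4, 63.3, 56.6 and 66.5 CPM. Mutants 2, 3 and 6 exceeded the highest control, which was control 5. Rchy1 had a log2 fold change of 0.14 (SE 0.07, interval -0.02 to 0.30, edgeR adjusted p 0.306), with 4 of 4 litters higher, although by only 0.00338 in D. It turned to -0.069 when the T-run index was a covariate. Of the Rchy1 exon bases, 18.02% also lie in Thap6 on the other strand, and reads there could not be assigned.

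Mdm4 (chromosome 1, 132959484 to 133030561, minus strand) encodes Mdmx, which binds p53 and pairs with Mdm2. Its level was 48.6, 41.8, 51.7, 51.01 and 46.7 CPM in controls 1 to 5 and 46.6, 43.6, 46.02, 45.96, 44.3 and 49.5 CPM in mutants 1 to 6. Every mutant lay inside the range of the controls. Its log2 fold change was -0.06 (SE 0.07, interval -0.21 to 0.10, edgeR adjusted p 0.699).

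Usp7 (chromosome 16, 8689595 to 8792308, minus strand) encodes a deubiquitinase that spares both p53 and Mdm2 from destruction. Controls ranged from 75.1 to 82.7 CPM and mutants from 69.5 to 81.9 CPM (median 77.6). Mutant 3 (74.7 CPM) lay just under the lowest control, and mutant 2 (69.5 CPM) lay further below. Usp7 had a log2 fold change of -0.04 (SE 0.06, interval -0.18 to 0.10, edgeR adjusted p 0.755). For both Mdm4 and Usp7 the upper end of the interval is 1.07-fold.

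Ep300 (chromosome 15, 81585351 to 81652077, plus strand) encodes the acetyltransferase p300, a p53 coactivator. Controls 1 to 5 had 11.9, 12.4, 12.4, 11.8 and 14.995 CPM, and mutants 1 to 6 had 17.99, 11.2, 12.8, 13.9, 10.9 and 13.01 CPM. Mutant 1 was the highest library and mutants 5 and 2 the lowest, so that the mutants straddled the controls. Ep300 had a log2 fold change of 0.05 (SE 0.13, interval -0.24 to 0.34, edgeR adjusted p 0.870). It was -0.087 without mutant 1 and -0.080 without litter A.

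Cdkn2a (chromosome 4, 89274471 to 89294653, minus strand) encodes p16Ink4a and p19Arf, the latter an inhibitor of Mdm2. It had 0 reads in all 5 controls and 1 read in mutant 2. A count of 0 over the control libraries allows a level of up to 0.0344 CPM (3 counts of their summed total), which covers counting error only. Cdkn2a was not tested, and no fold is given.

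Whether any of these changes differed between litters was tested by a genotype by litter interaction in edgeR, on 3 residual degrees of freedom. None of the 8 genes had an unadjusted p under 0.05 (smallest p 0.302 for Trp53, adjusted p 0.950), where 3.82% of all genes did. Over all genes 0 passed the adjusted threshold and 605 had an unadjusted p under 0.05. Without the filter on low counts 438 genes passed.

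Next to these 9 genes, 45 other regulators and relatives of p53 were listed, among them damage kinases, ubiquitin ligases, deubiquitinases, acetyltransferases, ribosomal proteins that bind Mdm2, and Trp63. All 45 were tested, and 1 passed (2.22%), which is near the 2.18% of all genes that passed in either direction. It was lower in mutants, where 1.48% of all genes passed as lower. The median log2 fold change of the list was -0.03, with 22 genes above 0 and 23 below. The one gene was Kat5 (chromosome 19, 5603017 to 5610094, minus strand), which encodes Tip60, an acetyltransferase that acts on p53 and on the damage kinase Atm.

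Kat5 had 47.5, 40.2, 45.1, 40.3 and 51.3 CPM in controls 1 to 5 and 33.2, 34.1, 37.7, 37.1, 32.7 and 35.5 CPM in mutants 1 to 6. Every mutant lay below every control. Of the Kat5 exon bases, 21.1% also lie in Rnaseh2c on the other strand, so that its level is less certain. Kat5 fell by a log2 fold change of -0.38 (SE 0.07, interval -0.53 to -0.22, edgeR adjusted p 0.0406), and was lower in all 4 litters. Leaving out 1 library at a time ended the call in 9 of 11 fits (edgeR adjusted p up to 0.176), where the estimate lay between -0.34 and -0.41 over the 11. The call also ended without the litter block (-0.36, edgeR adjusted p 0.0591) and under the T-run covariate (-0.34, edgeR adjusted p 0.405).

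The targets of p53 were described for contrast, by a list of 36 genes that leaves out the 9 genes above, of which 34 were tested. Of the 34, 10 rose and none fell in edgeR, where 0.702% of all genes rose, and the list median was 0.21. Sesn1, named here after its values were seen, was at -0.41 (edgeR adjusted p 0.0546) and lower in all 4 litters. It encodes a sestrin, as Sesn2 does. Sesn1 was called lower without the filter on low counts, with the 1 CPM filter, with DESeq2 and with limma-voom (adjusted p from 0.00958 to 0.0484), and was at -0.15 with the T-run covariate. This list overlaps one already known to be higher in these libraries, and is no independent evidence of direction. The 6 with the smallest p were Ccng1 (log2 fold change 1.48), Eda2r (2.08), Trp53cor1 (2.95), Cdkn1a (1.38), Zmat3 (0.64) and Sesn2 (0.98), with edgeR adjusted p from 0.000407 to 0.0291. When the T-run index, which was lower in the mutants of every litter, was a covariate, the count of targets called fell from 10 to 1. That 1 was Ccng1 (1.46, edgeR adjusted p 0.0458), and the count over all genes fell from 345 to 4. In that fit Cdkn1a was at 0.75 (SE 0.27, against 0.21 without the covariate, edgeR adjusted p 0.407). Zmat3 was at 0.84, above its 0.64 without the covariate (SE 0.16 against 0.10, edgeR adjusted p 0.348). Their longest T runs have 26 and 18 bases, and any part of these runs in the values was not tested. Eda2r (1.79, SE 0.39 against 0.23), Trp53cor1 (2.76, SE 0.66 against 0.36) and Sesn2 (0.88, SE 0.27 against 0.16) did not pass there either. Trp53cor1 had 4, 5, 7, 4 and 1 reads in controls 1 to 5 and 29, 34, 18, 9, 24 and 44 in mutants 1 to 6. Its fold thus rests on few control reads. It also shares 5.89% of its exon bases with a gene on the other strand. Ccng1 encodes cyclin G1, which steers a phosphatase to Mdm2, and rose to 41.5 ± 7.08 CPM (SD, n = 6) in mutants against 15.4 ± 2.69 CPM (SD, n = 5) in controls.

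Mdm2 lay among the targets that did not pass. Of the 34 tested targets, 16 had a log2 fold change above 0.27, the upper end of the interval of Mdm2, whatever their own interval. Of the 10 targets called higher, 9 had their own interval wholly above that end. A smaller log2 fold change than that of Mdm2 itself was seen in 13 of the 34. The count of targets called was sensitive to single libraries, as was the count over all genes. Targets called were 1 without control 4 or mutant 5, 2 without control 3 or mutant 6, and 3 without control 2, mutant 1 or mutant 3. They were 4 without mutant 4 and 5 without control 1. Over all genes these fits called 1, 1, 3, 3, 15, 8, 9, 10 and 14 genes, in the order named. Without mutant 2 there were 9 targets among 279 genes called. Without control 5 there were 13 targets among 850 genes called, and of these 13 targets 12 rose and Sesn1 fell. Ccng1 passed in all 11 of these fits.

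**Figure D4:**
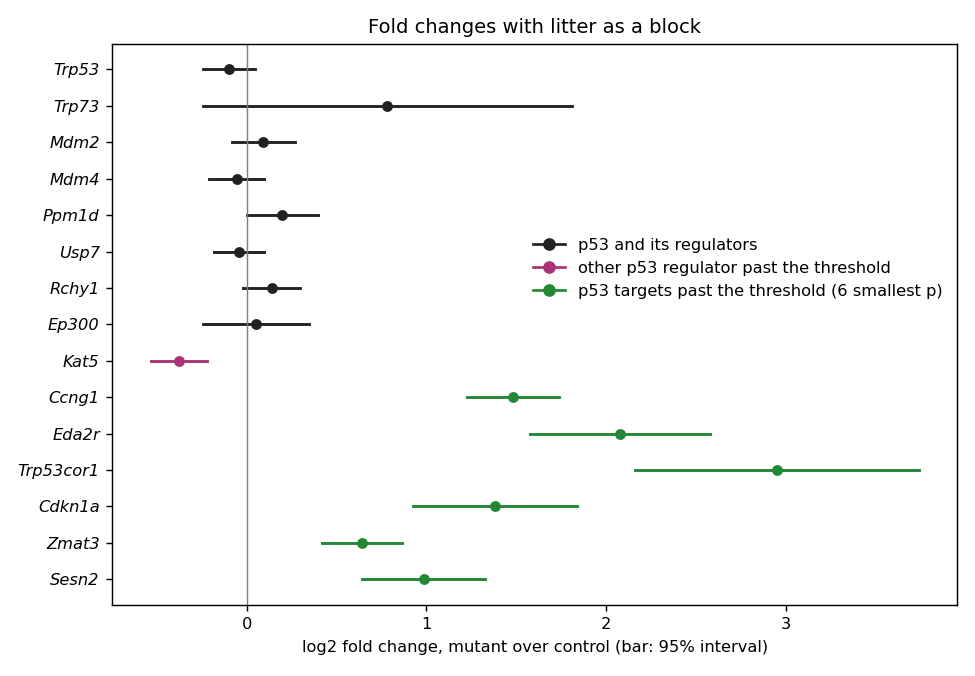
Log2 fold change of mutant over control (points) with its 95% interval (bars) for the 8 tested genes of p53 and its regulators, for Kat5, and for the 6 p53 targets with the smallest p. The intervals of the first 8 genes lie near 0 or span it, and that of Trp73 reaches 1.81. Those of the 6 targets start at 0.42 or above. These 6 were chosen by smallest p among the 10 called of 34 tested, so that intervals clear of 0 were fixed by that choice.

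Markers of other cell types in the bud were examined beside these values. None of the macrophage (8), red cell (8), endothelial (5), surface ectoderm (5), muscle precursor (3) and neural crest (3) markers tested passed the threshold. The summed level of the macrophage markers was 4.48 to 35.1 CPM in controls and 12.8 to 52.3 CPM in mutants. That of the red cell markers was 13088 to 33622 CPM and 16398 to 56601 CPM. Median log2 fold changes were 0.76 for macrophage, 0.57 for red cell, 0.30 for muscle precursor, -0.03 for endothelial, -0.19 for surface ectoderm and -0.48 for neural crest markers. All 8 red cell and 3 muscle precursor markers had values above 0, and the 3 neural crest markers had values below 0. Their part in the values of p53 and its regulators was not tested.

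The transcripts whose levels ran most like those of Mdm2 and Trp53 over the 11 libraries were taken among 9690 genes of at least 5 CPM, by Pearson's r of log2 CPM. For Mdm2 these were Nfat5 (r 0.92), Rif1 (0.85), Asxl3 (0.84), Cdk13 (0.83) and Phf2 (0.82). For Trp53 they included Rab1b (0.96), Abtb1 (0.95), Dph1 (0.92) and Osgep (0.92). Trp53 was at 8.83 log2 CPM in mutant 6 and at 9.19 to 9.37 in the other libraries, so that 1 library weighs heavily in its r values. None of the genes named is on the list of p53 targets, and none passed the test between genotypes. The libraries share scaling and depth, so that these values are a description. Between Mdm2 and Trp53 themselves r was -0.33.

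**Figure D5:**
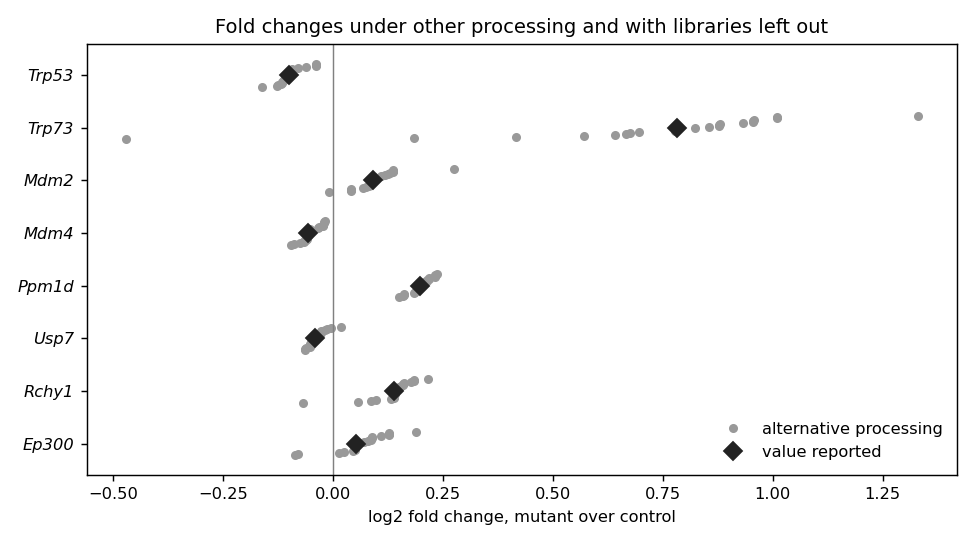
Log2 fold change of mutant over control for the 8 tested genes as reported (diamonds) and under each alternative processing or with libraries left out (grey points). Mdm2 ran from -0.0095 to 0.27, Trp53 from -0.16 to -0.04 and Ppm1d from 0.15 to 0.24, and none of these points passed the threshold.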

How the data were processed

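The authors deposited raw counts of reads for each gene name. Per the file headers, the authors made them with featureCounts 1.4.6-p4 on the GENCODE M9 annotation, with a mapping quality of at least 10 and no option for strand. STAR 2.5.4b and mm10 are named in the submitters' processing notes. The header command lists 12 alignment files. Of these, 11 libraries have a column in the table; any further one was not analysed here.

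Counts were tested with edgeR 4.0.16 in R 4.3.3 (filterByExpr, TMM scaling, quasi-likelihood F test, litter as a block, Benjamini-Hochberg over 15821 genes). SE is the log2 fold change over the square root of F, and intervals are at 95%. Log2 CPM used a prior count of 2. CPM and RPKM use TMM-scaled totals and the exon lengths of the deposited table. Alternatives used DESeq2 1.42.0, limma 3.58.1, other scaling and filters, no block, a T-run covariate from GENCODE M21 transcripts, and left-out libraries or litters. The script was tested on simulated data.

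Litters come from the sample titles. Deviations from group means correlated at a median of 0.13 over 8 same-litter pairs and -0.02 over 22 other pairs of libraries. Each title gives the library its own number within a litter, and p-values measure the spread between these libraries. Members and lists were chosen with earlier results of these data known. Named genes were the 9 members, Gmnn, up to 6 called genes per list by p, and the 5 genes most correlated with Mdm2 and with Trp53 (at least 5 CPM, without predicted genes, Xist and Y-linked genes). Of these, 1 gene is not reported here.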

Additional observations from a re-analysis of the deposited data

Results flagged for a closer look

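For 9 measures, the gap between an extreme library and its nearest neighbour was divided by the range of its genotype, at both ends, which made 36 comparisons. By Dixon's 95% critical value 2 libraries stood apart, and chance alone flags about 0.9. Trp53 in mutant 6 was 8.833 on the log2 CPM scale, and the other mutants were at 9.207 to 9.298. Ep300 in control 5 was 3.918 on the log2 CPM scale, and the other controls were at 3.575 to 3.65.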

How the results depend on the processing

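No member was called in any of 24 alternatives, although Trp73 was not tested under the 1 CPM filter and had no adjusted p in DESeq2, and Trp53, Mdm4 and Ppm1d kept their direction in all of them. Under the T-run covariate, Trp73 (-0.47), Usp7 (0.017) and Rchy1 (-0.069) changed sign as log2 fold changes; the cause was not tested. Ep300 ran from -0.087 to 0.13 with 1 library left out and was -0.080 without litter A. Mdm2 was -0.0095 without control 5 and mutant 5.

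The Mdm2 minus Trp53 difference was 0.16 with no replicate block, 0.18 to 0.25 with 1 library left out, and 0.29, 0.21, 0.18 and 0.22 without litters A to D, none past 0.05 except without mutant 2. Without litter A the smallest possible p is 0.0833, so that no pass was possible there.

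Other p53 regulators called numbered 5 without a filter on low counts, 3 with DESeq2, 0 with no replicate block, with the T-run covariate and without any 1 of the 4 litters, 0 to 4 with 1 library left out, and 2 without control 5 and mutant 5. Targets called were 13 with DESeq2, 11 with limma-voom, 11 with the 1 CPM filter and 15 without the filter (14 higher and 1 lower). They were 6 with no replicate block, 1 with the T-run covariate and 1 to 13 with 1 library left out. Without litters A to D they were 1, 2, 1 and 7.

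Over all genes the 345 calls became 1566 without the filter, 550 with a filter of 1 CPM in 5 libraries, 1194 with DESeq2, 13 with no replicate block and 4 with the T-run covariate. They became 9, 3, 1 and 148 without litters A to D, 1 to 850 with 1 library left out, and 782 without control 5 and mutant 5. Leaving out control 3, 4 or 5, or mutant 5 or 6, leaves a litter with 1 genotype, which the block then removes from the contrast. Without the filter, 438 genes passed the interaction test. Trp73 had 120 reads in all, and Cdkn2a, at 1 read, could not be tested at this depth.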
